A study of Mus musculus with 18 samples.

Results

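The genes described here encode the enzymes of glycolysis and the citric acid cycle, together with the glucose transporters that feed them, the lactate and pyruvate dehydrogenases that join them, the pyruvate dehydrogenase kinases, and the enzymes that carboxylate pyruvate or make glucose. They were taken by symbol from a list of 45 names, and all 45 were found among the 23228 genes of the expression table. The values compared come from RNA sequencing of 2 tissues of mouse embryos, both of strain ICR and both labelled WT. The first was neural tube at E12.5, from embryos carrying 2.3Ptf1a::GFP, a transgene whose GFP is driven by the 2.3 kb autoregulatory Ptf1a enhancer (chromosome 2, 19351717 to 19354014, mm9) through a beta-globin basal promoter. Its GFP-positive cells were dissociated with trypsin and sorted, so they were chosen by GFP from this enhancer, not by Ptf1a protein. Erythroid markers, given below, were also present in this sample. The second was whole, unsorted pancreas at E15.5, which holds acinar, duct and endocrine epithelium together with mesenchyme, vessels and blood. Ptf1a is a transcription factor needed in both tissues, for inhibitory neurons of the dorsal neural tube and for the pancreas.

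Each tissue had 1 value per gene, in FPKM (fragments counted per kilobase of a transcript and relative to the depth of the library), although the labels name 2 libraries for each. There is therefore no SD, no p-value and no replicate check for any value below, and each difference describes these 2 samples. Tissue, stage, sorting and RNA extraction all differed between the same 2 samples and cannot be told apart. In bulk RNA, fewer cells of a type and less RNA per cell also cannot be told apart. Depth was not given as counts. Judged from the smallest steps between low values, a single fragment of a 1 kb transcript was worth roughly 0.0424 FPKM in neural tube and 0.0246 FPKM in pancreas, so that 5 FPKM stood for roughly 118 fragments in neural tube and 204 in pancreas. A level of 3 fragments on the gene's longest annotated transcript is used below as an approximate floor.

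Cells take up glucose through transporters of the Slc2a family and split it in the cytosol to pyruvate. Pyruvate is either reduced to lactate or passed into mitochondria, where pyruvate dehydrogenase makes the acetyl group that citrate synthase feeds into the citric acid cycle. Many of these steps are shared out between isozymes, separate genes for the same reaction that tissues use in different proportions. In the pancreas, beta cells of rodents are known for the low-affinity transporter Slc2a2. Neural progenitors are known for high glucose uptake and lactate production.

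Most of the enzymes were expressed in both samples, and in 4 of 11 isozyme families a different gene had the highest value in each sample. To be called, a gene had to differ by at least 2 in log2(FPKM + 1) (4 times) and reach 5 FPKM in its higher sample, and a second count used a difference of at least 1 (2 times). These are rules of size, not tests. By the stricter rule Slc2a1 and Ldhb were higher in neural tube, 2 of the 42 that reached 5 FPKM anywhere, where 10.3% of all genes at that level were called in that direction. Slc2a2, Pdk1, Suclg2 and G6pc2, 4 of the 42, were higher in pancreas, where the figure for all genes was 11.9%. At 2 times, 7 genes were higher in neural tube against 23.2% of all genes, and 14 were higher in pancreas against 25.0% of all genes. These 14 are 33.3% and these 7 are 16.7% of the 42. Of the 33 that reached 5 FPKM in both, 19 lay within 2 times of each other and are called similar (57.6%), against 68.4% of all such genes. Pfkp and Eno2 reached 5 FPKM in neural tube alone and differed by less than 2 times, and Pklr, Pdk4 and Pck1 stayed under 5 FPKM in both samples. These shares lie near those of all genes, so the number of calls says nothing particular of the set.

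The counts at 2 times depended on how the samples were scaled. As deposited, FPKM summed to 455927 over all genes in neural tube and to 704172 in pancreas. Rescaling to equal totals, which multiplies every neural tube value by the same factor (0.63 in log2), gave 13 genes toward neural tube and 9 toward pancreas. The 7 and the 14 genes past 2 times all kept the sign of their difference under both other pseudocounts and all 5 rescalings. That outcome was fixed by the rule and is no check of these genes. A pseudocount cannot change a sign, and no rescaling moved log2 values by more than 0.63, less than the difference of at least 1 required. The median difference over the 43 genes that reached 1 FPKM anywhere was -0.35 in log2, neural tube minus pancreas, against -0.07 over all 14303 genes at that level. It changed sign to 0.26 with equal totals, where the median of all genes was 0.50. Shares within an isozyme family, and ratios between genes of a sample, do not move when a whole sample is rescaled.

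**Figure D1:**
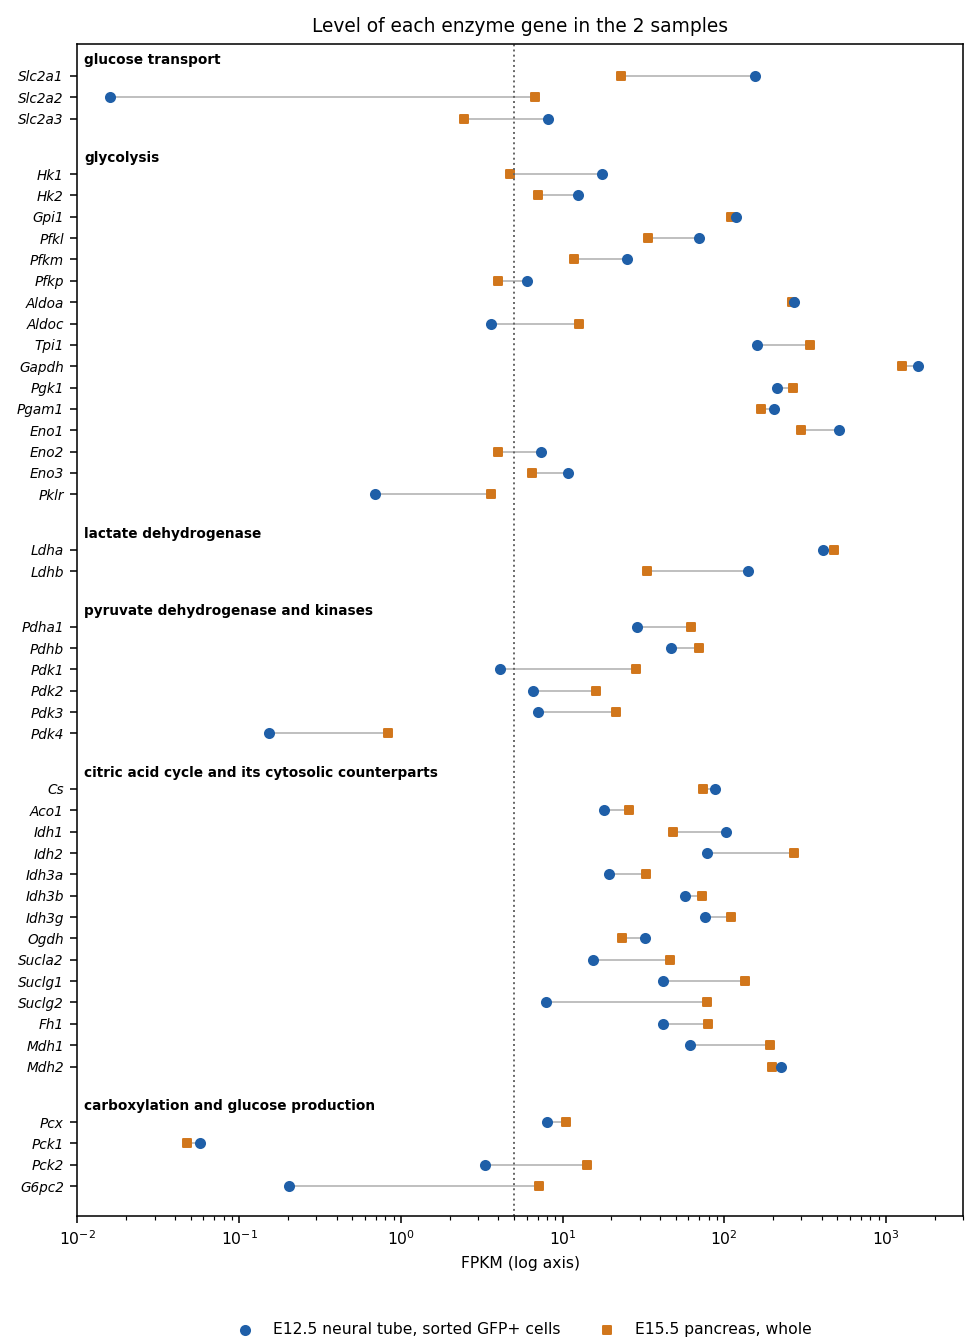
FPKM of each of the 45 genes on a log axis in sorted E12.5 neural tube cells (blue circles) and whole E15.5 pancreas (orange squares), 1 value per tissue, grouped by role, with a dotted line at 5 FPKM. Slc2a1 stood at 156 FPKM in neural tube against 22.9 in pancreas and Suclg2 at 7.85 FPKM in neural tube against 77.6 in pancreas, while Gpi1 and Aldoa nearly coincide.

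By role, the medians lay above 0 (toward neural tube) for glucose transport, glycolysis and lactate dehydrogenase, and below 0 (toward pancreas) for the other roles. Members lay on both sides in all roles but pyruvate dehydrogenase and its kinases. The roles below 0 are not a mitochondrial set: cytosolic Mdh1 lay toward pancreas (-1.64) and mitochondrial Mdh2 toward neural tube (0.18). The median difference was 1.40 for the 3 glucose transporters, 0.40 for the 16 glycolysis genes and 0.91 for the 2 lactate dehydrogenase genes. It was -1.18 over the 5 of 6 pyruvate dehydrogenase and kinase genes at 1 FPKM or more, and -0.63 for the 14 citric acid cycle genes and their cytosolic counterparts. Over 3 of the 4 genes of carboxylation and glucose production it was -1.81, and -1.08 with no list minimum. Of the 16 glycolysis genes 12 had a higher value in neural tube, whereas 10 of the 14 citric acid cycle genes had a higher value in pancreas, and so did all 6 of the pyruvate dehydrogenase and kinase genes. Over all genes, with no minimum level, 9279 had a higher value in neural tube and 11484 in pancreas. Among the 10744 genes that reached 5 FPKM anywhere, the median difference was -0.003, so the sides were near even. Past 2 times, 3 of the 15 glycolysis genes that reached 5 FPKM anywhere lay toward neural tube (20%, against 23.2% of all genes) and 2 toward pancreas (13.3%, against 25.0%), while 1 of the 14 citric acid cycle genes lay toward neural tube (7.14%) and 5 toward pancreas (35.7%). Small differences changed sign under some rescaling for Gpi1, Aldoa, Pgk1, Ldha, Pdhb, Aco1, Idh3b, Idh3g and Pcx. Over the pseudocounts, rescalings and list minimums tried, the glycolysis median ranged from 0.30 to 0.99 and the citric acid cycle median from -0.74 to -0.02, so neither changed sign. The gap between these 2 medians, 1.04 in log2, ranged from 0.88 with a pseudocount of 5 FPKM to 1.13 with a list minimum of 5 FPKM. A rescaling moves both medians by nearly the same amount, so it could hardly change this gap and is no check of it.

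Glucose transport held genes at both ends of the range. Slc2a1, the high-affinity transporter of most embryonic cells and of blood-tissue barriers (chromosome 4, 118781316 to 118809935, mm9), was at 156 FPKM in neural tube and 22.9 FPKM in pancreas, 6.80 times higher in neural tube. It ranked above 98.2% of all genes in neural tube and above 86.0% in pancreas. Slc2a3, the neuronal high-affinity transporter, was at 8.14 FPKM in neural tube and 2.47 FPKM in pancreas. Slc2a2, the transporter of beta cells and liver (chromosome 3, 28596825 to 28627278, mm9), was at 0.0160 FPKM in neural tube, under the floor of 0.0496 FPKM for its length, and at 6.71 FPKM in pancreas. Against that floor of 3 fragments in the neural tube sample it was at least 135 times higher in pancreas. Of the summed FPKM of these 3 genes, Slc2a1 made up 95.0% in neural tube and 71.3% in pancreas, and Slc2a2 made up 0.00977% in neural tube and 21.0% in pancreas. Slc2a1 was the leading transporter in both samples, also when Slc2a4 and Slc2a5 were added to the family.

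The sequences before the starts of the 6 genes called at 4 times are shown because they stand on opposite sides of the contrast, Slc2a1 and Ldhb on the neural tube side and Slc2a2, Pdk1, Suclg2 and G6pc2 on the pancreas side, beside that of Ldha, the similar partner of Ldhb. Each is the 250 bases upstream of the first start listed for the gene by RefSeq on GRCm38.p6, read 5′ to 3′ along the gene. Capitals mark ACGTG or GCGTG on either strand (CACGT or CACGC when read on the strand shown), the core letters of the hypoxia response element to which Hif1a binds in glycolytic genes.
Slc2a1, chr4:119108495-119108744, plus strand: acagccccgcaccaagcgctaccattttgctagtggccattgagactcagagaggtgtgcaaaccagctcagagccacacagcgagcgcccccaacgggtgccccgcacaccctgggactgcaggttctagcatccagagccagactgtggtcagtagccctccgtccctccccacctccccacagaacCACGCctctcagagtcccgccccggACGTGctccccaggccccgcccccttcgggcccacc
Slc2a2, chr3:28697653-28697902, plus strand: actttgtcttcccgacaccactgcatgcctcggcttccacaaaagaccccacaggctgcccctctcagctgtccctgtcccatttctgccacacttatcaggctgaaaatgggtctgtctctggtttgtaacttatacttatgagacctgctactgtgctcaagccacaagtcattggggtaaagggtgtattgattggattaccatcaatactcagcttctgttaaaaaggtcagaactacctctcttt
Ldha, chr7:46845554-46845803, plus strand: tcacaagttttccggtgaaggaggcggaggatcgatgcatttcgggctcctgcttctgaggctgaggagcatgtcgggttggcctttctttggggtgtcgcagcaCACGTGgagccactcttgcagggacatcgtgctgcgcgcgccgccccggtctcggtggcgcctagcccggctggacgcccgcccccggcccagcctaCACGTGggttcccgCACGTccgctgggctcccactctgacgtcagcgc
Ldhb, chr6:142507958-142508207, minus strand: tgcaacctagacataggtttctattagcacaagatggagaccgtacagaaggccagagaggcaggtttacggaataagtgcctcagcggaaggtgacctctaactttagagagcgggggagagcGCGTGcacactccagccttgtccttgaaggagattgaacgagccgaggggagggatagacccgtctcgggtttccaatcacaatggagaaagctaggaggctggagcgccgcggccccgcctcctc
Pdk1, chr2:71872974-71873223, plus strand: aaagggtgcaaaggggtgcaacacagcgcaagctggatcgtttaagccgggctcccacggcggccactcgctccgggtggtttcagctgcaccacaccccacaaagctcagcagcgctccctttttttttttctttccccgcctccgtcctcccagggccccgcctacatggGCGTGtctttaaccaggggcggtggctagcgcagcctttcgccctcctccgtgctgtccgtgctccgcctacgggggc
Suclg2, chr6:95718847-95719096, minus strand: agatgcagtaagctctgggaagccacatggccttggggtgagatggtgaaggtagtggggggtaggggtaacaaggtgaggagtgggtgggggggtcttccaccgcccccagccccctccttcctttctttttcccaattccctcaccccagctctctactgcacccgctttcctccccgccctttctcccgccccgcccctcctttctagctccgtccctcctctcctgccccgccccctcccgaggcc
G6pc2, chr2:69210823-69211072, plus strand: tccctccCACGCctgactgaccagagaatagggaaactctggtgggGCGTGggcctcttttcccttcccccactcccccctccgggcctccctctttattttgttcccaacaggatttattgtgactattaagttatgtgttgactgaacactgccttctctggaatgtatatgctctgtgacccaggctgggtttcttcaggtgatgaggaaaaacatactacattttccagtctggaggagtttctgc

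The first Ldha window held 5 such matches, counted on both strands, of which 4 lie in 2 copies of the palindrome CACGTG, the E-box letters. The Slc2a1 and G6pc2 windows held 2 each, the Ldhb and Pdk1 windows 1 each, and the Slc2a2 and Suclg2 windows 0. Windows were found for 43 of the 45 genes (not Idh3a and Slc2a3), and 32 of these 43 (74.4%) had ACGTG or GCGTG in at least 1 window, against 41.5% of the 27025 genes with a window. The median GC content was 58.6% over the 64 windows of these genes and 52.4% over all 32851 windows, and its part in that share was not tested. By letters, ACGTG was in 34.4% of the 64 windows against 16.6% of all, GCGTG in 51.6% against 28.2%, CACGTG in 10.9% against 6.02%, the GC box GGGCGG in 46.9% against 32.7%, and the TATA box letters TATAAA in 3.12% against 12.4%. Every CACGTG also counts as ACGTG, and windows of 1 gene can overlap. A gene with more windows has more chances of a match, and the number of windows per gene was not matched. The comparison with all genes was not limited to expressed genes. A match is only a run of letters. The matches stood both before genes higher in neural tube and before genes higher in pancreas.

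At the entry to glycolysis, the hexokinase in the lead changed between the samples. Hk1, the broadly expressed hexokinase, was at 17.4 FPKM in neural tube and 4.72 FPKM in pancreas, 3.69 times higher in neural tube. Hk2, the inducible form, was at 12.5 FPKM in neural tube and 7.02 FPKM in pancreas. Hk1 thus made up 58.3% of the pair in neural tube and 40.2% in pancreas. With Hk3 and Hkdc1 added to the family, Hk1 still led in neural tube with 51.6%, but Hkdc1 led in pancreas with 51.0%, followed by Hk2 with 26.3%. Hkdc1, a hexokinase of epithelia, was at 0.0346 FPKM in neural tube and 13.6 FPKM in pancreas. Hk1 and Hkdc1 are neighbours on the minus strand of chromosome 10, 3228 bases apart (Hk1 at 61731603 to 61842656 and Hkdc1 at 61845885 to 61885239, mm9), and their levels lay in opposite order in the 2 samples.

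The middle of glycolysis was carried by the same genes in both samples. The phosphofructokinases, which catalyse the committed step, all had higher values in neural tube, with Pfkl, the liver-type subunit, at 69.6 FPKM in neural tube and 33.5 FPKM in pancreas. Pfkm, the muscle-type subunit, was at 25.1 FPKM in neural tube and 11.8 FPKM in pancreas, and Pfkp, the platelet type, was at 5.997 FPKM in neural tube and 3.97 FPKM in pancreas. The family total was 101 FPKM in neural tube and 49.3 FPKM in pancreas, yet its makeup hardly differed: Pfkl made up 69.1% in neural tube and 68.0% in pancreas, Pfkm 24.9% in neural tube and 23.96% in pancreas. The enolases, which make phosphoenolpyruvate, were alike in this. Eno1, the general enolase, was at 509 FPKM in neural tube and 299 FPKM in pancreas and made up 96.5% in neural tube and 96.6% in pancreas of the family. Eno2, the enolase known as a marker of mature neurons and endocrine cells, was at 7.39 FPKM in neural tube and 3.99 FPKM in pancreas, which is 1.40% in neural tube and 1.29% in pancreas of the family. Eno3, the muscle enolase, was at 10.9 FPKM in neural tube and 6.49 FPKM in pancreas.

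Aldolase, which splits the sugar, was almost all Aldoa, at 271 FPKM in neural tube and 261 FPKM in pancreas. Aldoc, the brain-type aldolase by name, was lower in neural tube, at 3.61 FPKM against 12.6 FPKM in pancreas, and made up 1.31% in neural tube and 4.58% in pancreas of the pair. Tpi1, the triose isomerase, was at 159 FPKM in neural tube and 338 FPKM in pancreas, and with Aldoc it was past 2 times toward pancreas at 5 FPKM or more. Gapdh was the most abundant of all 45 genes in both samples, at 1568 FPKM in neural tube and 1261 FPKM in pancreas. The other single-gene steps were similar: Gpi1, the phosphoglucose isomerase, at 117 FPKM in neural tube and 109.8 FPKM in pancreas, the kinase Pgk1 at 211 FPKM in neural tube and 265 FPKM in pancreas, and the mutase Pgam1 at 202 FPKM in neural tube and 168 FPKM in pancreas. Several of these abundant genes (Gapdh, Eno1, Pgk1, Aldoa, Tpi1 and Pgam1, and Ldha below) have near-identical processed copies in the mouse genome, so their values depend on how such reads were counted.

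For pyruvate kinase, the final step, the gene among the 45 is the liver and red cell form Pklr, at 0.688 FPKM in neural tube and 3.63 FPKM in pancreas. The main gene of this step in other tissues, listed as Pkm2, was at 920 FPKM in neural tube and 309 FPKM in pancreas, 2.98 times higher in neural tube. Pkm2 exceeded Pklr by 1337 times in neural tube and by 85.1 times in pancreas, so the liver form was minor in both samples. Of 9 erythroid markers 3, all embryonic globins, were called higher in neural tube and 4 in pancreas, with Hba-a1 at 587 FPKM in neural tube and 14315 FPKM in pancreas, and a summed level of 1683 FPKM in neural tube and 16013 FPKM in pancreas, none at 0. Their part in the Pklr difference was not tested.

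**Figure D2:**
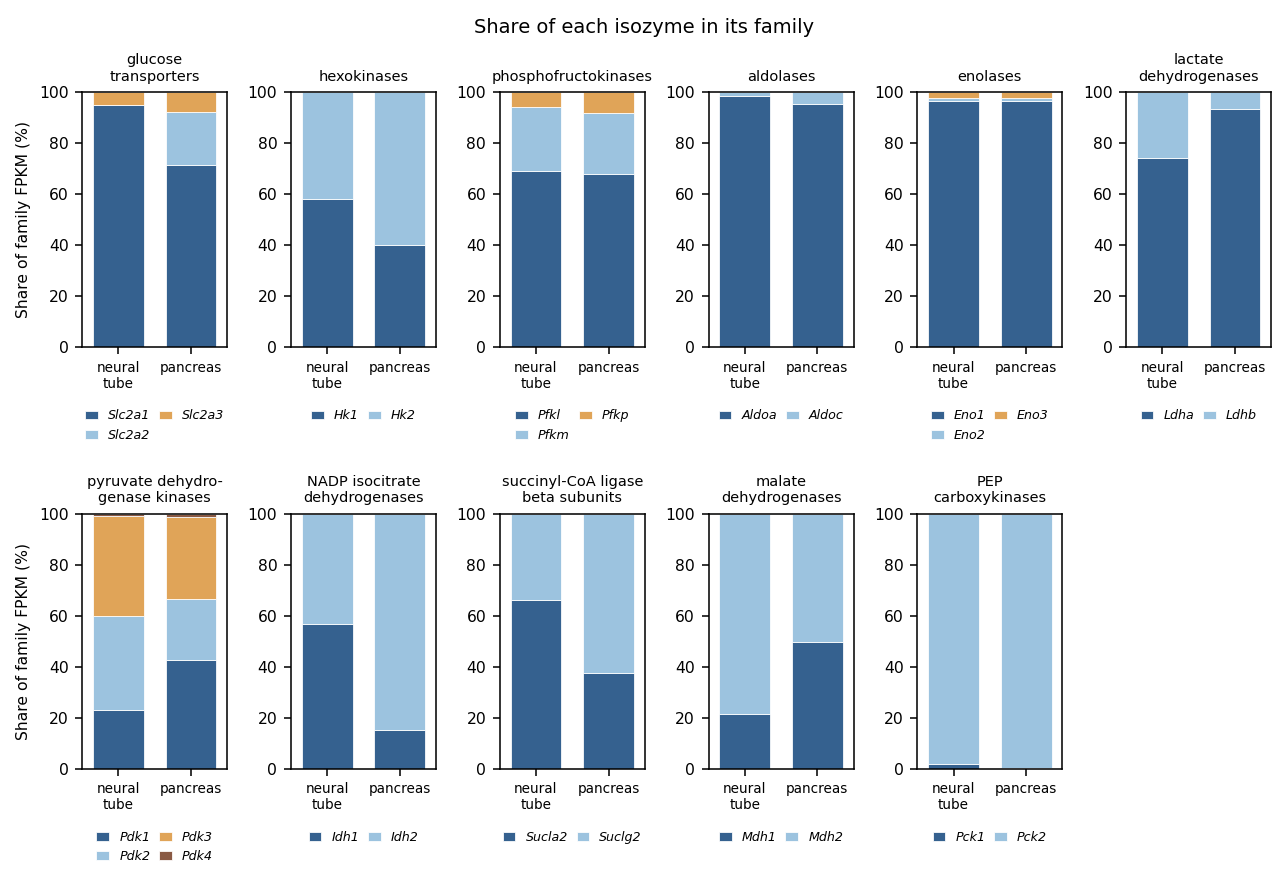
Share of each gene in the summed FPKM of its isozyme family, in percent, for sorted E12.5 neural tube cells (left bar of each panel) and whole E15.5 pancreas (right bar), over 11 families. Idh2 took 43.2% of its pair in neural tube and 84.7% in pancreas, and Ldhb 25.6% in neural tube and 6.56% in pancreas, while phosphofructokinases and enolases show nearly the same makeup.

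Of the 2 lactate dehydrogenase genes, Ldhb was past 2 times and Ldha was similar. Ldha, whose subunit predominates in tissues that make lactate, was at 409 FPKM in neural tube and 476 FPKM in pancreas. This small difference changed sign with equal totals, with equal totals without the 50 highest genes and with rescaling to the housekeeping list. Ldhb, whose subunit predominates in heart and brain (chromosome 6, 142438769 to 142456477, mm9), was at 141 FPKM in neural tube and 33.4 FPKM in pancreas, 4.21 times higher in neural tube. The Ldhb share was 25.6% in neural tube and 6.56% in pancreas, and the ratio of Ldha to Ldhb was 2.91 in neural tube and 14.2 in pancreas. The Ldhb call at 4 times is near its threshold, with a difference of 2.04 that became 1.92 with a pseudocount of 5 FPKM and 1.93 with rescaling to the upper quartile. Of the transporters that carry lactate, Slc16a3, the exporter of glycolytic cells, was at 30.5 FPKM in neural tube and 4.00 FPKM in pancreas. Slc16a1, a lactate and pyruvate carrier of many cell types, had 7.84 FPKM in neural tube and 13.5 FPKM in pancreas (a gene chosen with its values in view).

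Pyruvate dehydrogenase and the kinases that inhibit it had higher values in pancreas, Pdhb alone changing sign with equal totals. Pdha1, the catalytic subunit that the kinases phosphorylate, was at 28.9 FPKM in neural tube and 61.9 FPKM in pancreas, and its partner Pdhb was at 46.5 FPKM in neural tube and 69.5 FPKM in pancreas. Pdk1, the kinase known for induction by hypoxia (chromosome 2, 71711281 to 71741915, mm9), was at 4.12 FPKM in neural tube and 28.5 FPKM in pancreas, 6.91 times higher in pancreas. Pdk2 was at 6.54 FPKM in neural tube and 16.1 FPKM in pancreas, and Pdk3 at 7.02 FPKM in neural tube and 21.4 FPKM in pancreas. Pdk4, the kinase of fasting, was at 0.154 FPKM in neural tube and 0.835 FPKM in pancreas. The leading kinase gene was Pdk3 in neural tube, with 39.4% of the family, and Pdk1 in pancreas, with 42.6%. In neural tube Pdk2 was close behind Pdk3, with 36.7%.

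The phosphatases that undo this phosphorylation stood the other way, and were named after their values were seen. Pdp1 was at 14.2 FPKM in neural tube and 4.59 FPKM in pancreas, and Pdp2 at 6.16 FPKM in neural tube and 2.50 FPKM in pancreas. The regulatory subunit Pdpr was at 6.71 FPKM in neural tube and 2.40 FPKM in pancreas. The 4 kinase genes summed to 17.8 FPKM in neural tube and 66.8 FPKM in pancreas, and Pdp1 and Pdp2 to 20.3 FPKM in neural tube and 7.09 FPKM in pancreas. The ratio of kinase to phosphatase transcripts was thus 0.878 in neural tube and 9.42 in pancreas, 10.7 times higher in pancreas, a figure that no rescaling of a sample changes. It concerns transcripts, and neither activity nor phosphorylation was measured. Relative to Pdha1, the kinase sum was 0.617 in neural tube and 1.08 in pancreas. The remaining subunits were near equal for Dlat, at 9.67 FPKM in neural tube and 10.2 FPKM in pancreas, and Pdhx, at 11.1 FPKM in neural tube and 11.6 FPKM in pancreas, whereas Dld, shared with other dehydrogenases, was at 29.0 FPKM in neural tube and 68.7 FPKM in pancreas.

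**Figure D3:**
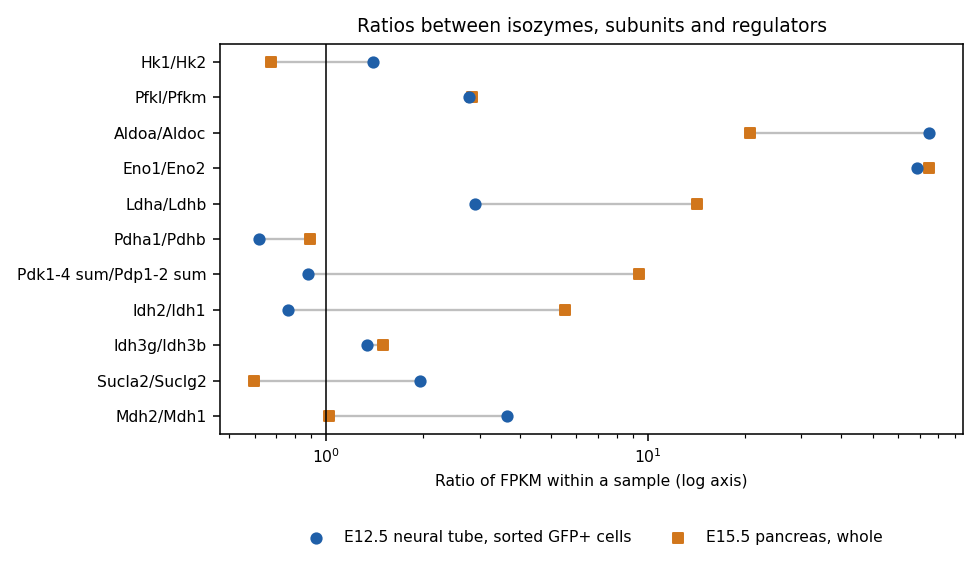
Ratios of FPKM between isozymes, subunits and regulators within each sample, on a log axis, for sorted E12.5 neural tube cells (blue circles) and whole E15.5 pancreas (orange squares). The kinase to phosphatase ratio of pyruvate dehydrogenase was 0.878 in neural tube and 9.42 in pancreas, and Idh2 to Idh1 was 0.761 in neural tube and 5.55 in pancreas, while Pfkl to Pfkm was 2.77 in neural tube and 2.84 in pancreas.

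In the citric acid cycle the 3 subunits of succinyl-CoA ligase, which turns succinyl-CoA into succinate, were all past 2 times toward pancreas. Suclg2, the GTP-forming beta subunit of succinyl-CoA ligase (chromosome 6, 95423006 to 95668792, mm9), was at 7.85 FPKM in neural tube and 77.6 FPKM in pancreas, 9.89 times higher in pancreas and the largest difference among all 45 genes on the log2(FPKM + 1) scale (-3.15). It ranked above 68.3% of all genes in neural tube and above 95.4% in pancreas, and was the one gene of the 45 called at 8 times on that scale. By the ratio of FPKM, G6pc2 (34.8 times) and Slc2a2 (at least 135 times) differed more. Sucla2, the ATP-forming beta subunit, was at 15.4 FPKM in neural tube and 46.3 FPKM in pancreas, and the shared alpha subunit Suclg1 at 41.7 FPKM in neural tube and 134 FPKM in pancreas. The leading beta subunit was therefore Sucla2 in neural tube, with 66.3%, and Suclg2 in pancreas, with 62.6%. Both beta subunits together amounted to 0.558 of the alpha subunit in neural tube and 0.922 in pancreas.

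The isocitrate dehydrogenases separated by compartment. Idh1, the cytosolic NADP-dependent enzyme, was at 103 FPKM in neural tube and 48.3 FPKM in pancreas, and was the only gene of the citric acid cycle group past 2 times toward neural tube as deposited. Idh2, its mitochondrial counterpart, was at 78.3 FPKM in neural tube and 268 FPKM in pancreas. Idh1 led the pair in neural tube with 56.8%, and Idh2 led it in pancreas with 84.7%, the largest change of share in the 11 families as made up of the 45 genes (41.5 percentage points). The 3 subunits of the NAD-dependent enzyme of the cycle proper were similar. Idh3a was at 19.3 FPKM in neural tube and 32.9 FPKM in pancreas, Idh3b at 56.7 FPKM in neural tube and 73.1 FPKM in pancreas, and Idh3g at 75.9 FPKM in neural tube and 109.6 FPKM in pancreas.

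Malate dehydrogenase gave the opposite compartment order. Mdh1, the cytosolic enzyme of the malate-aspartate shuttle, was at 61.1 FPKM in neural tube and 192 FPKM in pancreas, while mitochondrial Mdh2 was similar at 223 FPKM in neural tube and 196 FPKM in pancreas. Mdh2 made up 78.5% of the pair in neural tube and 50.5% in pancreas. The early steps were also similar: citrate synthase Cs at 87.8 FPKM in neural tube and 74.2 FPKM in pancreas, and Ogdh, the oxoglutarate dehydrogenase, at 32.2 FPKM in neural tube and 23.4 FPKM in pancreas. Aco1, the cytosolic aconitase that doubles as an iron sensor, was at 18.1 FPKM in neural tube and 25.8 FPKM in pancreas, and fumarase Fh1 at 41.9 FPKM in neural tube and 78.9 FPKM in pancreas.

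**Figure D4:**
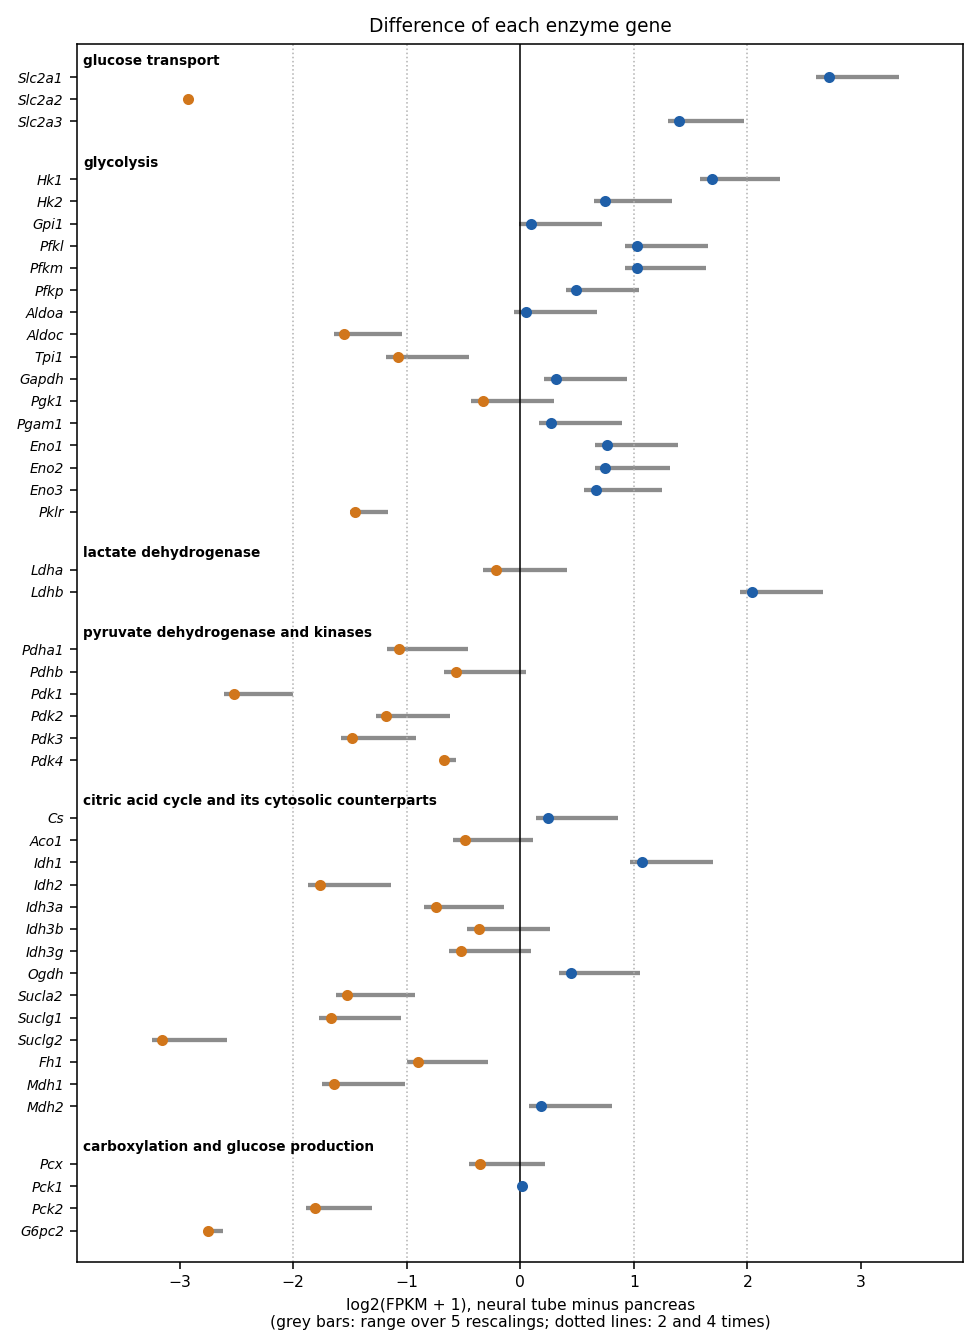
Difference in log2(FPKM + 1), sorted E12.5 neural tube cells minus whole E15.5 pancreas, for each of the 45 genes by role (points: as deposited, blue above 0 and orange below; grey bars: range over 5 rescalings; dotted lines: 2 and 4 times). Slc2a1 lies at 2.71 and Suclg2 at -3.15, and the glycolysis points lie mostly to the right of those of the citric acid cycle.

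Of the enzymes that lead pyruvate back toward glucose, Pck2 and G6pc2 were past 2 times toward pancreas. Pcx, the pyruvate carboxylase that refills the cycle, was similar at 8.05 FPKM in neural tube and 10.6 FPKM in pancreas. Pck2, the mitochondrial phosphoenolpyruvate carboxykinase, was at 3.32 FPKM in neural tube and 14.1 FPKM in pancreas, while Pck1, the cytosolic enzyme of liver and kidney, was at 0.0576 FPKM in neural tube and 0.0476 FPKM in pancreas, close to the floors for its length, 0.0466 FPKM in neural tube and 0.0270 FPKM in pancreas. G6pc2, the islet glucose phosphatase (chromosome 2, 69049130 to 69065898, mm9), was at 0.204 FPKM in neural tube and 7.10 FPKM in pancreas, 34.8 times higher in pancreas. Beta cell markers lay in the same direction as Slc2a2 and G6pc2: 7 of 8 were called higher in pancreas, with a summed level of 2.40 FPKM in neural tube and 1963 FPKM in pancreas and with Ins1, Ins2 and Iapp at 0 in neural tube. The highest were Nkx6-1 in neural tube, at 1.33 FPKM, and Ins2 in pancreas, at 1370 FPKM. Hepatocyte markers summed to 0.667 FPKM in neural tube and 53.7 FPKM in pancreas, with Alb and Fgb at 0 in neural tube, and were led by Serpina1a in neural tube at 0.286 FPKM and by Afp in pancreas at 19.1 FPKM. The part of either cell type in the differences of Slc2a2 and G6pc2 was not tested.

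Further genes of these pathways were taken from lists that hold none of the 45. Of 24 other glycolysis and sugar genes considered, 10 reached 5 FPKM in either tissue, of which 0 were called higher in neural tube and 1, Hkdc1, in pancreas (10%, against 11.9% of all genes). At 2 times, Pkm2 and Pfkfb4, an isoform of the enzyme that sets the phosphofructokinase activator, were also higher in neural tube (Pfkfb4 at 5.17 FPKM in neural tube and 1.81 FPKM in pancreas). That is 20% of the 10 toward neural tube, against 23.2% of all genes, and 10% toward pancreas, against 25.0%. Of 25 other pyruvate and citric acid cycle genes considered, 22 reached 5 FPKM in either tissue. Of these, 1 was called higher in neural tube, Slc16a3 (4.55%, against 10.3% of all genes), and 0 in pancreas (against 11.9%). Of the 17 at that level in both, 14 were similar (82.4%, against 68.4% of all such genes). At 2 times, Dld, Sdhd and Brp44l, a subunit of the mitochondrial pyruvate carrier, were higher in pancreas (13.6% of the 22, against 25.0% of all genes). Slc16a3 and the 3 phosphatase genes were higher in neural tube (18.2%, against 23.2% of all genes). Sdhd, a membrane anchor of succinate dehydrogenase, was at 41.8 FPKM in neural tube and 139 FPKM in pancreas, and Brp44l at 19.3 FPKM in neural tube and 55.5 FPKM in pancreas. The other succinate dehydrogenase genes Sdha, Sdhb and Sdhc were similar. Of 7 pentose phosphate genes 6 were similar (85.7%, against 68.4% of all genes at 5 FPKM in both). The other, the epimerase Rpe, was past 2 times toward pancreas (14.3% of the 7, against 25.0% of all genes), at 7.48 FPKM in neural tube and 22.1 FPKM in pancreas.

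Of 14 genes listed as hypoxia-responsive outside glycolysis, 9 reached 5 FPKM in both samples and all 9 were similar, against 68.4% of all such genes. The list is mixed: it also holds Hif1a, Arnt and Epas1, which encode the factors themselves, and Hif1a and Arnt are among the 9. Car9, Ndrg1 and Egln3 did not reach that level in neural tube and so could not be counted as similar. Of the 12 that reached 5 FPKM in either tissue, 0 were called higher in neural tube, against 10.3% of all genes. In pancreas 2 were called higher (16.7%, against 11.9% of all genes). Car9, a carbonic anhydrase, was at 0.180 FPKM in neural tube and 60.5 FPKM in pancreas, and Ndrg1 at 1.65 FPKM in neural tube and 69.9 FPKM in pancreas. Egln3, a prolyl hydroxylase, was past 2 times toward pancreas at 2.56 FPKM in neural tube and 11.9 FPKM in pancreas. At 2 times, 25% of the 12 lay toward pancreas, against 25.0% of all genes, and 0 toward neural tube, against 23.2%. The list median was -0.39 in log2, against -0.35 for the enzymes and -0.07 for all genes at 1 FPKM or more. Hif1a itself was at 23.0 FPKM in neural tube and 20.5 FPKM in pancreas. Epas1 was at 0.792 FPKM in neural tube and 4.11 FPKM in pancreas, and Arnt at 8.81 FPKM in neural tube and 15.1 FPKM in pancreas. Vegfa was at 21.9 FPKM in neural tube and 23.4 FPKM in pancreas. These genes were named after their values were seen.

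Markers of cell types give a rough view of what the samples held, and some lists had members called in both directions. All 7 neuron markers in the table were called higher in neural tube, with sums of 1345 FPKM in neural tube and 28.4 FPKM in pancreas. They were led by the tubulin Tubb3 in neural tube, at 869 FPKM, and by Stmn2 in pancreas, at 13.7 FPKM. Of 7 radial glia and astrocyte markers 3 were called higher in neural tube. The marker called in pancreas was Aqp4, at 0.0199 FPKM in neural tube and 8.69 FPKM in pancreas. Vim was the highest in both, at 477 FPKM in neural tube and 273 FPKM in pancreas. Of 8 acinar markers 6 were called higher in pancreas, with sums of 0.184 FPKM in neural tube and 33522 FPKM in pancreas, and 3 of the 8 (Prss2, Clps and Pnlip) were at 0 in neural tube. One acinar marker, the amylase gene Amy2a5, did not separate the samples, at 0.00265 FPKM in neural tube and listed at 0 in pancreas. Ctrb1, a chymotrypsinogen, led them in both, at 0.0688 FPKM in neural tube and 21063 FPKM in pancreas. Of 6 mesenchyme markers 5 were called higher in pancreas, with sums of 26.8 FPKM in neural tube and 1045 FPKM in pancreas and the collagen Col3a1 leading in both, at 11.2 FPKM in neural tube and 469 FPKM in pancreas. Of 6 endothelial markers 4 were called higher in pancreas, with sums of 11.5 FPKM in neural tube and 80.0 FPKM in pancreas, led by Cldn5 in neural tube at 5.23 FPKM and by Pecam1 in pancreas at 24.3 FPKM. Of 5 alpha cell markers 2 were called in each direction, led by Irx2 in neural tube at 20.2 FPKM and by glucagon, Gcg, in pancreas at 712 FPKM. Of 8 skeletal muscle markers 1, Des, was called, toward pancreas at 22.6 FPKM, and Acta1 led in neural tube at 9.42 FPKM. The parts of these cell types in the differences of the 45 enzymes were not tested.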

How the data were processed

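RNA sequencing values of 2 samples were used. The values were FPKM as the authors deposited them, 1 column per tissue, and each was taken as pooled over the 2 libraries its label names. Per the submitters' processing notes the build was mm9 and the tools were Cuffdiff 2.0.2, TopHat2 2.0.4, TopHat and CASAVA. What each tool did, and on which annotation, is not stated. RNA was made by a column kit from sorted cells and by Trizol from pancreas, per the labels' protocols, and 2 library preparations are named, so preparation may also differ.

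Differences were log2(FPKM + 1), neural tube minus pancreas, which shrinks the differences of low genes. Ratios given as times are of the FPKM themselves. The members, lists and rules were chosen with earlier results of these data known. All 45 members were to be accounted for. From the other lists, genes past 4 times with 5 FPKM or more and Pkm2 were to be named, and the highest gene of each marker list. Some genes of these lists are not reported here and were left out of their counts and shares. Other genes named were chosen after their values were seen, including Pdp1, Pdp2, Pdpr, Dlat, Pdhx, Dld, Sdhd, Brp44l, Rpe and Egln3. Gene positions are from GENCODE M1 (NCBIM37, that is mm9), and depth from the commonest low product of FPKM and length among its genes with 1 transcript. Promoter windows were those of RefSeq on GRCm38.p6. Python 3.11.15, numpy 2.4.6, pandas 2.3.3 and matplotlib 3.10.9 were used. Alternatives were pseudocounts of 0.1 and 5 FPKM, minimums of 10 FPKM and none, thresholds of 8 and 1.5 times, 5 rescalings, and other makeups of the isozyme families. The other 16 of 18 samples of the series, of chromatin, are not analysed here.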

Additional observations from a re-analysis of the deposited data

How the results depend on the processing

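No paired analysis was possible because each tissue had 1 value per gene. For the same reason no replicate could be left out. The 2 genes called higher in neural tube became 1 with a pseudocount of 5 FPKM, 1 with rescaling to the upper quartile and 0 at 8 times. The 4 genes called higher in pancreas became 1 with a pseudocount of 5 FPKM, 2 with a minimum of 10 FPKM and 1 at 8 times. The 7 genes past 2 times toward neural tube became 4 with a pseudocount of 5 FPKM, 4 with the upper quartile and 13 with equal totals, and the 14 toward pancreas became 9 with equal totals. The split at 2 times was 10 against 11 with rescaling to the housekeeping list or without the 50 highest genes. The median over the enzymes changed sign to 0.26 with equal totals. The number of similar genes stayed within 14 to 23 under every alternative. The pseudocount of 5 FPKM ended the calls of Slc2a2, Pdk1, G6pc2 and Ldhb, and the upper quartile that of Ldhb. Hk1 passed 4 times with equal totals or without the 50 highest genes, and Pck2 with a pseudocount of 0.1 FPKM.

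Hk2, the leading hexokinase of pancreas among the 45 genes with 59.8% of its pair, had 26.3% and second place once Hkdc1 and others were added. In the other 3 families to which genes were added (glucose transporters, aldolases and lactate dehydrogenases) the leading gene stayed the same. The other 7 families had none added, and shares of summed log2(FPKM + 1) cannot change which gene leads. Mdh2 led Mdh1 in pancreas by only 50.5% to 49.5%, and Pdk3 led Pdk2 in neural tube by only 39.4% to 36.7%. With 1 value per tissue and no counts, no interval can be given. Pck1 rests on few fragments in both samples. Pdk4 lay nearer its floor in neural tube (0.154 FPKM against 0.0365 FPKM) than in pancreas (0.835 FPKM against 0.0211 FPKM).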
